A study of Mus musculus with 26 samples.

Results

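This comparison set the livers of all 8 mice given 50 mg/kg benoxacor against those of all 5 mice given 0 mg/kg, 13 of the 26 mice in the series, across every expressed gene. All mice were C57BL/6, were gavaged on each of 3 days in a row, and gave up their livers 24 hours after the last gavage. They had been acclimatised between 4 and 8 weeks of age, with bedding shared to even out their gut microbes, and the labels give neither sex nor vehicle. Each library is 1 mouse. The remaining mice received 0.5 mg/kg (5 mice) or 5 mg/kg (8 mice) and entered the fit. They add to the estimate of the spread between mice and of the difference between the runs of mouse numbers described below. Through that difference they also move the fitted 50 against 0 mg/kg fold changes.

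Benoxacor is a safener, a compound blended into chloroacetanilide herbicides so that the crop detoxifies the herbicide faster than the weed does. In the mammalian liver, foreign compounds are sensed chiefly by the nuclear receptors CAR and PXR and by the aryl hydrocarbon receptor (AhR). Their targets are oxidising enzymes of the cytochrome P450 family, conjugating enzymes such as sulfotransferases and glutathione S-transferases, and the transporters that carry the products out. Electrophiles are sensed by NRF2, which drives glutathione synthesis. The same receptors meet bile acid production, whose first and rate-limiting enzyme is Cyp7a1 and which the bile acid receptor FXR holds in check through Nr0b2.

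The mouse numbers form a run from 601 to 616 and a run from 619 to 632. The run from 601 held 4 control mice and 4 mice at 50 mg/kg. The run from 619 held 1 control mouse and 4 mice at 50 mg/kg. No label says what separates the runs, so run was a term in the fit. Within each run the numbers rise with dose in blocks, and dose therefore cannot be told apart from whatever followed the number order. Total counts over the 13 libraries ranged from 5913429 to 8662751 reads in genes, with a median of 6753553. Expression is given below as CPM, counts scaled to a common library size with TMM factors, and fold changes are on the log2 scale with their standard error (SE).

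Few genes separated the 2 groups beyond the spread between mice. Of 14635 genes tested, 1 was called by the edgeR quasi-likelihood fit at a Benjamini-Hochberg adjusted p under 0.05, which is 0.00683% of them. The gene was Zbtb16, and the next smallest adjusted p was 0.501. At an unadjusted p under 0.05 there were 744 genes (5.08%), of which 371 were higher at 50 mg/kg (2.54% of the genes tested) and 373 were lower (2.55%). The middle 50% of the log2 fold changes lay between -0.15 and 0.14, and the middle 98% between -0.79 and 0.70.

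The precision was enough to bound most genes. For 12045 genes, 82.3% of those tested, the whole 95% interval lay inside a 2-fold change in either direction. The intervals here and below hold gene by gene and are not adjusted for the number of genes. Among the 10562 genes with a mean of at least 5 CPM over the 13 mice, 10081 (95.4%) were bounded in this way. Inside a 1.5-fold change lay the intervals of 7688 genes (52.5%). A fitted change past 2-fold was found for 46 genes upward and 66 downward, most of them weakly expressed: 16 and 10 of these had a mean of at least 5 CPM.

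**Figure D1:**
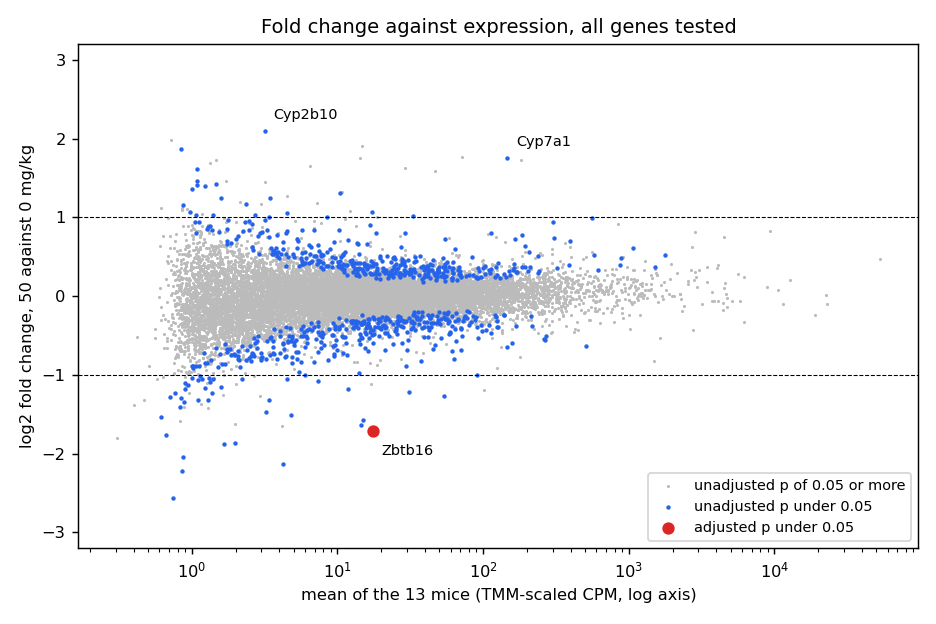
Log2 fold change at 50 against 0 mg/kg (vertical axis) by mean expression over the 13 mice (horizontal log axis, CPM), with 1 point per gene and dashed lines at a 2-fold change. The cloud narrows as expression rises, and Zbtb16, in red, is the single gene past an adjusted p of 0.05.

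Zbtb16 encodes a zinc finger transcriptional repressor and is a known target of the glucocorticoid receptor (ENSMUSG00000066687, chromosome 9 from 48654297 to 48836222 in mm10). In the run from 601 the controls measured 27.5, 18.7, 14.3 and 27.6 CPM, and the 50 mg/kg mice 5.398, 6.08, 8.46 and 7.17 CPM. In the run from 619 the single control measured 54.5 CPM, and the 50 mg/kg mice 19.97, 15.45, 13.02 and 9.55 CPM. The groups were thus apart within each run, while over all 13 mice the ranges overlapped. The controls averaged 28.5 ± 15.6 CPM (SD, n = 5), and the treated mice averaged 10.6 ± 5.1 CPM (SD, n = 8). The fitted level fell by 1.72 on the log2 scale (SE 0.25, 95% interval -2.23 to -1.20, adjusted p = 0.00334 by edgeR). In the fit over all doses without the control of the run from 619, the log2 fold change was -1.64 and the adjusted p 0.0702, while the run from 601 alone gave -1.71 and an adjusted p of 0.0102 (edgeR). With no term for run, the log2 fold change was -1.42 (SE 0.37) and the adjusted p 0.919. Zbtb16 itself differed between the runs, at 1.01 on the log2 scale in the run from 619 against that from 601 (edgeR adjusted p = 0.0183). The run term called 13 of the genes tested at the same threshold. Over both runs together the call for dose thus depends on the run term. That term was estimated from the mice of all doses, while the controls were 4 in the run from 601 and 1 in that from 619.

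Targets of the glucocorticoid receptor as a list had no common direction. Of 24 tested, 12 had a positive and 12 a negative fold change, with a median of 0.02 beside 0.01 over all genes. Fkbp5, a co-chaperone of the receptor that glucocorticoids induce, measured 40.6 ± 12.3 CPM (SD, n = 5) in the controls and 63.9 ± 20.6 CPM (SD, n = 8) at 50 mg/kg, a log2 fold change of 0.73 (SE 0.29, edgeR adjusted p = 0.881), in the direction opposite to Zbtb16. Cdkn1a, a cell cycle inhibitor, was at -1.51 (SE 0.58), but its mice spread from 0.686 to 13.01 CPM at 0 mg/kg and from 0.438 to 16.2 CPM at 50 mg/kg.

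Cyp7a1 was higher at 50 mg/kg in every mouse without passing the test across all genes. The controls measured 97.2, 54.0, 57.5 and 38.9 CPM in the run from 601 and 82.2 CPM in the run from 619. The 50 mg/kg mice measured 277, 173, 198 and 103 CPM in the first run, and 182, 167, 333 and 140 CPM in the second. All 8 lay above the highest control, although the lowest of them, at 103 CPM, was near it. The fitted log2 fold change was 1.75 (SE 0.40, 95% interval 0.93 to 2.57), a 3.36-fold higher fitted level (edgeR adjusted p = 0.639). DESeq2 gave 1.73 with an adjusted p of 0.0077, which is past the threshold. The edgeR value was smaller, at 1.52, when the mice of the lower doses were left out of the fit. It was 1.60 within the run from 601 alone and 1.32 within the run from 619 alone. With all doses but without the control of the run from 619 it was larger, at 2.12.

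Akr1d1, the reductase that gives the bile acid ring its bend, was the other bile acid enzyme with an unadjusted p under 0.05. Its controls measured 110, 164, 108 and 86.8 CPM in the first run and 130 CPM in the second. The 50 mg/kg mice measured 259, 213, 217 and 146 CPM, then 236, 134, 179 and 167 CPM. The groups overlapped at their edges and gave a log2 fold change of 0.73 (SE 0.18, edgeR adjusted p = 0.653). Cyp8b1, which sets the share of cholic acid, was at 0.47 (SE 0.29), with controls from 87.1 to 218 CPM and treated mice from 125 to 254 CPM. Of all 16 bile acid synthesis enzymes tested, 11 were positive and 5 negative, with a median of 0.11, and 2 (12.5%, beside 2.54% of all genes) were higher at an unadjusted p under 0.05.

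The FXR feedback genes had no common direction, with 6 of 11 positive. Nr0b2, the repressor of Cyp7a1 that FXR induces, measured 33.0, 32.3, 32.2, 23.2 and 13.1 CPM in the 5 controls, and from 9.57 to 37.5 CPM with a median of 24.6 CPM at 50 mg/kg. The groups overlapped over nearly their whole range (log2 fold change -0.43, SE 0.42, edgeR adjusted p = 0.998). Nr1h4, which encodes FXR itself, was at 0.33 (SE 0.13), and Slc51a, a subunit of the basolateral bile acid exporter, at 0.43 (SE 0.15). Both of these, 18.2% of the 11 beside 2.54% of all genes, had an unadjusted p under 0.05, and neither passed the test. Among 19 bile acid and drug transporters, 6 were positive and 13 negative. The uptake carrier Slc10a1 was at 0.36 (SE 0.15), and the canalicular bile salt pump Abcb11 at -0.19 (SE 0.15).

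**Figure D2:**
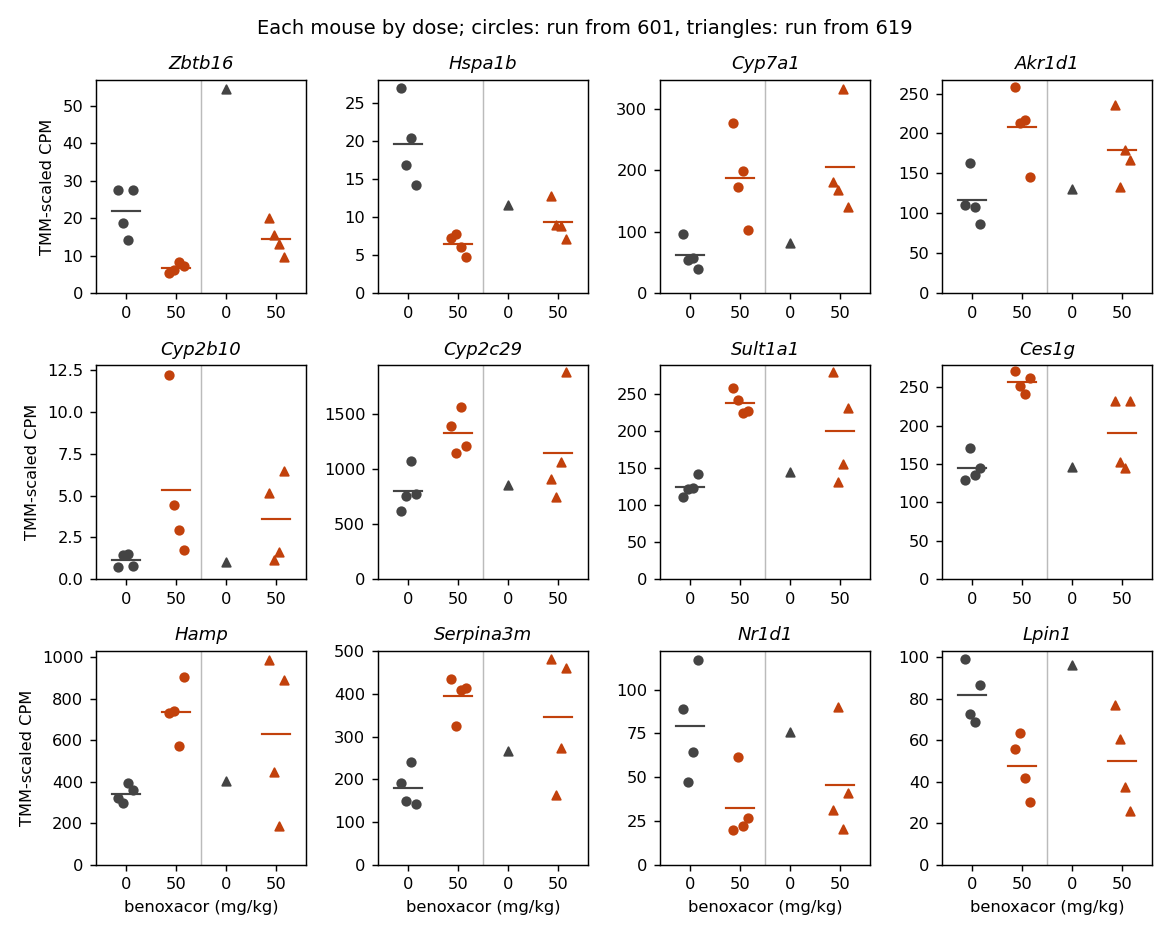
CPM of 12 named genes in each mouse (vertical axes, starting at 0) by dose and run, with a bar at the mean where a group has more than 1 mouse. Zbtb16 is lower at 50 mg/kg within each run, Cyp7a1 is higher in all 8 mice, and in Cyp2b10, Sult1a1 and Ces1g part of the 50 mg/kg mice of the run from 619 sit at or near the level of the controls.

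CAR targets as a list lay higher at 50 mg/kg than the genes as a whole, without any member passing the test over both runs. Of 25 tested, 22 had a positive fold change and the median was 0.36, beside 0.01 over all genes. At an unadjusted p under 0.05 there were 5 higher members of the 25 (beside 2.54% of all genes) and 0 lower ones. The median was 0.39 within the run from 601 and -0.01 within the run from 619, where a single control stands for the group. The intervals of 13 of the 25 lay inside a 2-fold change.

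Cyp2b10, the P450 most used as a readout of CAR, was barely expressed. It measured 0.699, 1.45, 1.51 and 0.805 CPM in the controls of the first run and 1.03 CPM in that of the second. At 50 mg/kg it measured 12.2, 4.45, 2.92 and 1.75 CPM in the first run, and 5.13, 1.11, 1.59 and 6.45 CPM in the second. Mice 630 and 631 were close to the controls and mouse 613 was far above them. The log2 fold change was 2.09 (SE 0.63, 95% interval 0.79 to 3.40, edgeR adjusted p = 0.731).

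The Cyp2c members were expressed far more strongly. Cyp2c29 measured from 615 to 1075 CPM in the controls and from 741 to 1878 CPM at 50 mg/kg, a log2 fold change of 0.61 (SE 0.22, edgeR adjusted p = 0.869). Cyp2c54 was at 0.70 (SE 0.23): its 4 treated mice of the first run, at 450 to 511 CPM, stood above the 4 controls at 170 to 305 CPM, whereas in the second run the control reached 486 CPM. Within the run from 601 alone Cyp2c54 passed the test (1.02, edgeR adjusted p = 0.0406). The genes of the Cyp2c cluster are near copies of one another, and reads may have been divided between them. The other higher members were Cyp2c50 at 0.48 (SE 0.18), named after its value was seen, and Cyp2a5.

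The PXR and AhR lists had lower medians than the CAR list over both runs, but in the run from 619 alone theirs were 0.37 and 0.60. Among 20 PXR targets tested, several of which are CAR targets too, 12 were positive, with a median of 0.13, and 3 of the 20 (15%, beside 2.54% of all genes) were higher at an unadjusted p under 0.05. These were the organic anion carrier Slco1a4 at 1.01 (SE 0.39), the P450 Cyp3a13 at 0.55 (SE 0.24) and the glucuronosyltransferase Ugt1a5 at 0.84 (SE 0.37), whose exons are shared with other Ugt1a genes. Of 12 AhR targets, 11 were positive, with a median of 0.17. Slc46a3 was at 0.51 (SE 0.23), Selenbp1 at 0.41 (SE 0.21), and Nqo1, a quinone reductase that AhR and NRF2 both induce, at 0.46 (SE 0.34) on a level of 3.12 ± 1.4 CPM (SD, n = 5) in the controls.

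NRF2 targets showed no common direction. Of 23 tested, 10 were positive and 13 negative, and the median was -0.0028. Gclc, the rate-limiting enzyme of glutathione synthesis, was at -0.36 (SE 0.18). Cyp2a5, on both the CAR and NRF2 lists and marking hepatocytes around the central vein, was at 0.74 (SE 0.36), and control mouse 603 reached 530 CPM against 140 to 194 CPM in the other controls.

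The conjugating enzymes had small fold changes. Among 22 glutathione S-transferases 15 were positive, with a median of 0.13. Gsta3 was at 0.37 (SE 0.17) and Gstp3 at -0.48 (SE 0.19), and the intervals of 17 of the 22 lay inside a 2-fold change. Of 8 sulfotransferase genes, 6 were positive. Sult1a1, which sulfates phenols, measured 111, 121, 123 and 142 CPM in the first controls and 258, 242, 224 and 226 CPM in the treated mice of the same run, a wide gap. In the second run the control was at 144 CPM and the treated mice at 280, 131, 156 and 230 CPM, on both sides of it. Its log2 fold change was 0.78 (SE 0.21, edgeR adjusted p = 0.653), and within the run from 601 alone it was 0.93 and passed (edgeR adjusted p = 0.0102).

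Of 18 carboxylesterases and amidases, which open ester and amide bonds, 13 were positive, with a median of 0.11. Ces1g repeated the pattern of Sult1a1. Its first-run controls measured 128, 171, 136 and 145 CPM against 271, 251, 242 and 262 CPM in the treated mice, and the second run had 146 CPM in the control against 232, 152, 145 and 232 CPM. The log2 fold change was 0.64 (SE 0.18, edgeR adjusted p = 0.687). Again mice 630 and 631 were the low ones. Among 17 glucuronosyltransferases 11 were positive, with a median of 0.12.

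Of the 24 genes of cholesterol synthesis and uptake, 0 had an unadjusted p under 0.05 (beside 5.08% of all genes). The intervals of 22 lay inside a 2-fold change, although 17 were positive (median 0.14). The median was 0.007 within the run from 601 and 0.32 within the run from 619, which has 1 control. Pmvk, a kinase of the mevalonate pathway, was at 0.39 (SE 0.20). Among 22 fatty acid and triglyceride synthesis genes 13 were positive. Lpin1, the phosphatidate phosphatase that makes diacylglycerol, measured 99.3, 72.9, 68.9 and 86.7 CPM in the first controls and 96.4 CPM in the second. Its treated mice measured 56.0, 63.3, 41.7 and 30.1 CPM, then 77.0, 60.5, 37.5 and 25.9 CPM, so that within each run all treated mice were below the controls (log2 fold change -0.80, SE 0.25, edgeR adjusted p = 0.798). Scd1, the desaturase that makes oleate, was at 0.63 (SE 0.35), with treated mice spread from 1088 to 7351 CPM.

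Of 30 PPAR-alpha targets and fatty acid oxidation genes 17 were positive, with a median of 0.02 and 0 at an unadjusted p under 0.05. Pex11a, a peroxisome division gene induced by PPAR-alpha ligands, was at 0.20 (SE 0.17, 95% interval -0.14 to 0.54). Gluconeogenic and fasting genes had a median of -0.05 over 17 genes, with Fbp1 at 0.32 (SE 0.24). All 20 genes of the urea cycle and amino acid breakdown were bounded inside 2-fold, with a median of 0.11 and Asl, which releases arginine, at 0.41 (SE 0.23). Liver zonation gave medians of 0.11 for 20 genes of the pericentral end and 0.15 for 20 of the periportal end. Aldh1b1, on the periportal list, was at 0.80 (SE 0.38).

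Of 28 acute phase genes 24 were positive, with a median of 0.27. The median was 0.21 within the run from 601 and 0.66 within the run from 619. At an unadjusted p under 0.05, just 1 gene was higher (3.57%, beside 2.54% of all genes). That gene, the serine protease inhibitor Serpina3m, measured 192, 150, 240 and 141 CPM in the first controls against 435, 325, 410 and 413 CPM in their treated run mates. In the second run the control had 268 CPM and the treated mice 483, 164, 274 and 461 CPM (log2 fold change 0.93, SE 0.29, edgeR adjusted p = 0.766). It belongs to a cluster of near-identical genes. Orm1, a plasma carrier protein, was at 0.56 (SE 0.28).

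All 30 complement and coagulation genes were bounded inside 2-fold, with 25 positive, a median of 0.11 and Kng1, the kininogen, at 0.45 (SE 0.24). Alb, which encodes serum albumin, took 4.40 ± 0.50% of reads (SD, n = 5) in the controls and 5.89 ± 1.16% (SD, n = 8) at 50 mg/kg. Within runs the difference was 1.58 percentage points (two-sided exact permutation test within runs over 350 arrangements, p = 0.0286, and 0.171 after adjustment over 6 such measures). These lists hold abundant transcripts, and abundance itself went with a positive fold change: the median was -0.11 in the lowest 10% of genes by expression, where 41.0% were positive, and 0.06 in the highest 10%, where 63.7% were. The 44 ribosomal protein genes (33 positive, median 0.10) and 34 nuclear genes of the respiratory chain (26 positive, median 0.10) lay in the same range. Within the run from 601 their medians were 0.08 and 0.09, and within the run from 619 they were 0.44 and 0.21. The part of expression level in these medians was not tested.

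Hamp encodes hepcidin, the hormone with which the liver limits iron uptake. The controls measured 321, 297, 394 and 358 CPM in the first run and 402 CPM in the second. The 50 mg/kg mice measured 730, 743, 574 and 907 CPM in the first run, all above the controls, and 989, 449, 185 and 891 CPM in the second, where mouse 631 had the lowest value of all 13. The log2 fold change was 0.99 (SE 0.30, edgeR adjusted p = 0.716). Of the 22 genes of heme synthesis and iron handling 13 were positive. Uros and Ppox, enzymes of heme synthesis, were at -0.43 (SE 0.11) and -0.25 (SE 0.11). For Uros every treated mouse lay below the controls of its run.

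Of 19 heat shock and chaperone genes 13 were negative, with a median of -0.06. Hspa1b, an inducible Hsp70 with a near-identical neighbouring copy, measured 27.0, 16.9, 20.4 and 14.2 CPM in the first controls against 7.25, 7.86, 6.13 and 4.78 CPM at 50 mg/kg. In the second run the control, at 11.7 CPM, lay among the treated mice at 12.8, 8.92, 8.83 and 7.19 CPM. The log2 fold change was -1.18 (SE 0.25, edgeR adjusted p = 0.501), and it was -1.59 within the run from 601 (edgeR adjusted p = 0.0102). DESeq2 over both runs gave -1.20 with an adjusted p of 0.0186. Bag3, a co-chaperone induced with it, was at -0.22 (SE 0.14).

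Among 27 genes of the ER stress and integrated stress responses 18 were negative, with a median of -0.12, which was -0.13 within the run from 601 but 0.21 within the run from 619. The ER-associated degradation genes Herpud1 and Syvn1 were at -0.50 (SE 0.20) and -0.60 (SE 0.27), and the transcription factor Atf5 at -0.65 (SE 0.27). In the run from 619 alone Herpud1 was at 0.13. Of the genes tested on this list 3 were lower (11.1%, beside 2.55% of all genes) and 1 higher at an unadjusted p under 0.05, Atf4 at 0.25 (SE 0.11), named after its value was seen. Of 19 p53 and DNA damage genes 14 were negative, with a median of -0.15. Cell cycle genes were split, with 8 positive and 9 negative: Rrm2, for making deoxynucleotides, was at 0.70 (SE 0.34) and the mitotic cyclin Ccnb2 at -0.89 (SE 0.43), on levels of a few CPM. Immediate early genes, which respond within minutes to handling or injury, had a median of -0.03 over 17 genes. Interferon response genes had 24 of 34 positive, a median of 0.16 and 3 higher at an unadjusted p under 0.05 (8.82%, beside 2.54% of all genes), namely Ifit3 at 0.71 (SE 0.28), Irgm1 at 0.37 (SE 0.15) and Rtp4 at 0.41 (SE 0.17).

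The circadian genes varied widely from mouse to mouse. Of 22 tested, 12 were positive, with fold changes from -1.37 to 0.95. Nr1d1, the clock repressor REV-ERB alpha, measured 89.1, 47.5, 64.3 and 117 CPM in the first controls and 75.7 CPM in the second. The treated mice measured 19.6, 61.5, 22.03 and 26.9 CPM, then 31.3, 90.2, 20.4 and 40.8 CPM, so that 6 of the 8 were below every control (log2 fold change -1.27, SE 0.45, edgeR adjusted p = 0.869). Hlf, a clock output factor, was at 0.49 (SE 0.17), and Tspan4, also on the clock list, at 0.60 (SE 0.20). The labels give no time of day for harvest. With a clock index, the first principal component of these genes, added as a covariate after the data were seen, Zbtb16 was at -1.66 (edgeR adjusted p = 0.0390), Hspa1b at -1.39 (adjusted p = 0.0402) and Cyp7a1 at 1.62 (adjusted p = 0.872).

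Growth hormone pulses set the sex-biased genes of mouse liver. Of 28 male-biased genes 24 were negative, with a median of -0.10, and 1 was lower at an unadjusted p under 0.05 (3.57%, beside 2.55% of all genes). Cspg5 was at -0.77 (SE 0.34), the elongase Elovl3 at -1.20 (SE 0.69) and the urinary protein gene Mup17, one of many near copies, at -0.82 (SE 0.61). The Mup genes together took 6.88 ± 1.0% of reads (SD, n = 5) at 0 mg/kg and 5.53 ± 1.72% (SD, n = 8) at 50 mg/kg, a difference that did not pass the exact permutation test within runs (two-sided p = 0.0914, adjusted 0.274). Of 8 female-biased genes tested 5 were positive. Fmo2, a flavin monooxygenase, was at 1.06 (SE 0.29), with treated mice from 10.2 to 40.8 CPM against 6.71 to 14.8 CPM. Of the growth hormone signalling genes Jak2 was at 0.33 (SE 0.14) and Stat5b at -0.31 (SE 0.15).

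**Figure D3:**
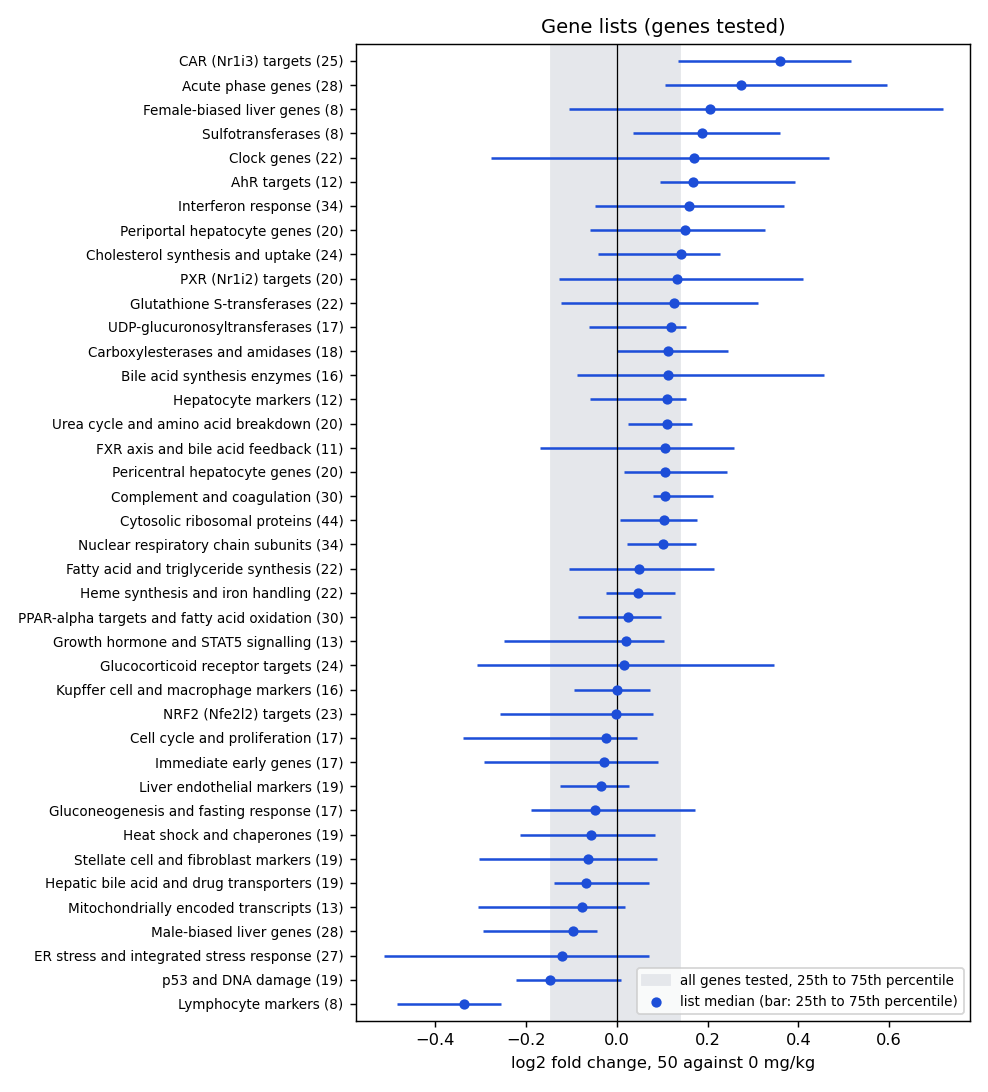
Median log2 fold change at 50 against 0 mg/kg (points) and the 25th to 75th percentile (bars) for each gene list with at least 8 genes tested, beside the 25th to 75th percentile of all genes (grey band, -0.15 to 0.14). CAR targets have the highest median, 0.36, and most other medians lie inside the band.

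Among genes with a mean of at least 1 CPM, the 12 of smallest p on the higher side were Kdsr, Cyp7a1, Cep19, Akr1d1, Gm14097, Chmp1b, Sult1a1, Casp8, Fmo2, Gm45299, Ces1g and Crcp. Kdsr, an enzyme of sphingolipid synthesis, headed them with 19.7 ± 2.72 CPM (SD, n = 5) against 27.4 ± 2.60 CPM (SD, n = 8), a log2 fold change of 0.50 (SE 0.11, edgeR adjusted p = 0.608). Cep19, a centrosome and cilium protein, measured 3.08, 3.33, 2.74, 3.08 and 2.95 CPM in the controls and from 3.47 to 6.57 CPM at 50 mg/kg. Casp8, the initiator caspase of death receptors, measured 23.6 to 24.97 CPM in the controls and 26.1 to 36.5 CPM at 50 mg/kg. The controls of both genes were close together, and the treated mice began just above them. Chmp1b, of the ESCRT-III membrane scission machinery, was at 0.35 (SE 0.09), and Crcp, a subunit of RNA polymerase III, at 0.50 (SE 0.14). The antisense transcript Gm14097 (1.05, SE 0.28) and the pseudogene Gm45299 (1.42, SE 0.40) had a few CPM at most. Reads of the first may belong to the opposite strand, since the strand setting of the counting is not given, and those of the second to its parent gene.

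On the lower side stood Zbtb16, Hspa1b, Banp, Ablim3, Uros, Mbd1, Gtf2ird1, Ptges, Serpina3e-ps, mt-Tl2, Sel1l3 and Raet1d. Ablim3, an actin-binding LIM protein, was at -0.68 (SE 0.17) and Mbd1, which binds methylated CpG, at -0.69 (SE 0.18). The nuclear matrix protein gene Banp was at -0.76 (SE 0.19), Gtf2ird1, a transcription factor, at -0.51 (SE 0.13), and Sel1l3 at -0.48 (SE 0.13). Ptges, which makes prostaglandin E2, measured 5.17, 5.06, 0.686, 2.68 and 1.77 CPM in the controls and from 0.248 to 1.42 CPM at 50 mg/kg. The pseudogene Serpina3e-ps owed its value of -2.13 (SE 0.56) mainly to controls at 11.6 and 24.5 CPM, since the medians of the groups were 1.96 and 2.03 CPM. Raet1d, a ligand of the killer cell receptor NKG2D with close relatives, was at -1.47 (SE 0.40), and the mitochondrial leucine tRNA mt-Tl2 at -1.22 (SE 0.32).

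In all 13 mice together, the groups did not overlap for 18 genes with higher values (0.123% of the genes tested) and 8 with lower values (0.0547%). Within each run taken apart, all treated mice were above the controls of their run for 74 genes (0.506%) and below them for 57 (0.389%). Among the 24 genes just named, Cyp7a1, Cep19 and Casp8 were apart over all 13 mice.

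The runs were compared by fitting each alone. All 12 of the higher and all 12 of the lower genes named above had the same sign in both runs, which is no independent support, since the genes were chosen from the same mice. Nor can their sizes be compared between runs, since the choice rested mainly on the run with 4 controls. A direct test of the difference between runs, the interaction of run and dose over the 13 mice, called 0 genes by edgeR (smallest adjusted p = 0.484). Before adjustment, 486 were under 0.05. With 1 control in the second run this test has little precision.

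**Figure D4:**
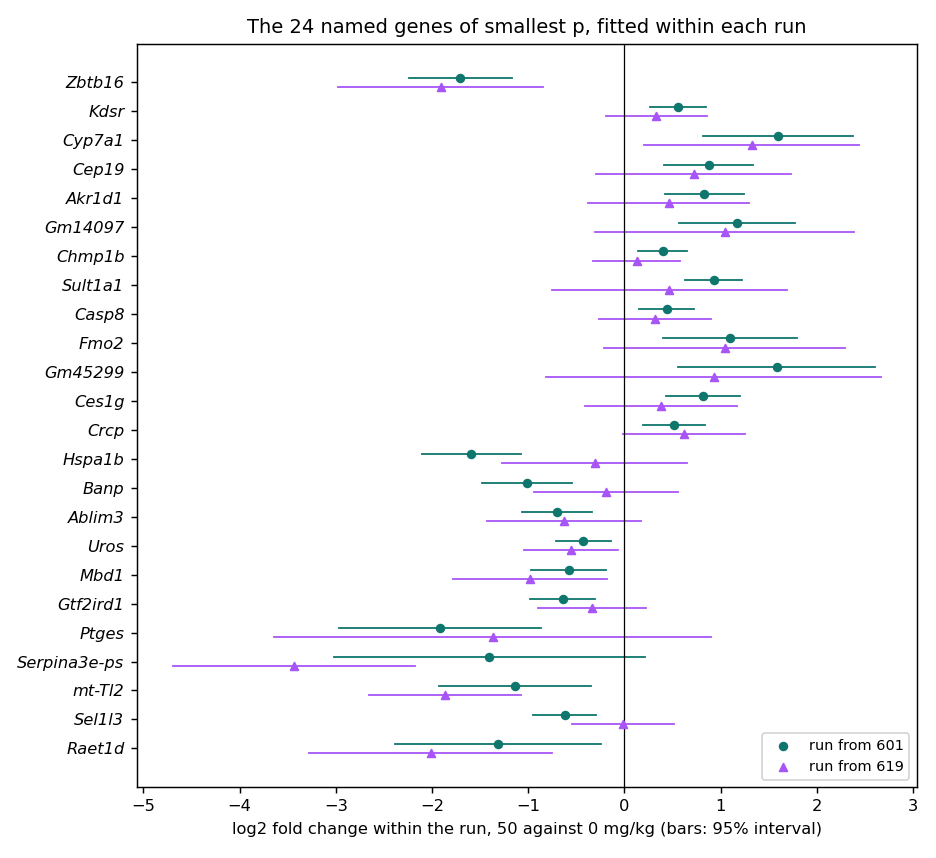
Log2 fold change at 50 against 0 mg/kg (horizontal axis, bars for the 95% interval) of the 24 genes named by smallest p, fitted within the run from 601 (circles) and the run from 619 (triangles). Signs match in both runs, and the intervals of the run from 619, which has 1 control, are mostly wider.

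Mice of both doses and both runs were spread along the largest axis of variation among the 13 livers. The first principal component of 10562 genes carried 37.2% of the variance. The controls lay from -27.1 to 20.5 on it and the 50 mg/kg mice from -35.9 to 37.0. Within the run from 619, control 619 lay at -27.1 with treated mice 630 and 631 at -17.2 and -35.9, while treated mice 629 and 632 lay at 22.5 and 37.0. Mice 630 and 631 were also the lowest treated mice of that run in Cyp2b10, Sult1a1, Ces1g and Hamp. In the run from 601, treated mice 613, 614, 615 and 616 lay at -2.76, -9.44, 2.95 and 25.8. In the same order Sult1a1 measured 258, 242, 224 and 226 CPM, and Ces1g 271, 251, 242 and 262 CPM. Mouse 616 had the lowest Cyp2b10 and the highest Hamp of these mice. The part of this axis in those results was not tested. The second component carried 11.7%.

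**Figure D5:**
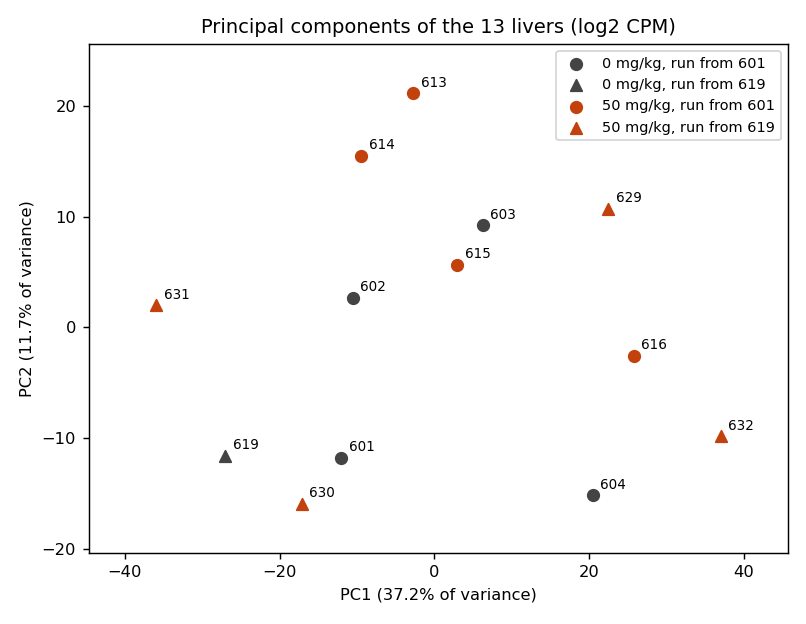
First (horizontal) and second (vertical) principal components of log2 CPM for the 13 livers, colour for dose and shape for run, numbered by mouse. Both doses spread across the whole first component, from mouse 631 at -35.9 to mouse 632 at 37.0.

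The sample composition was that of liver in both groups. Of 12 hepatocyte markers 7 were positive, with a median of 0.11 and 11 bounded inside 2-fold. In whole tissue, fewer cells of a type and less RNA per cell cannot be told apart. Endothelial markers had 14 of 19 negative at a median of -0.03, with summed levels of 539 to 693 CPM in the controls and 489 to 656 CPM at 50 mg/kg. Fold changes on this list ran from -0.52 to 0.60. At an unadjusted p under 0.05, 2 of the 19 were lower (10.5%, beside 2.55% of all genes) and 0 higher. Of the endothelial markers Vwf, the clotting factor of vessel walls, was at -0.52 (SE 0.22) and Eng at -0.22 (SE 0.10). Kupffer cell markers summed to 325 to 504 CPM against 222 to 505 CPM, and stellate cell markers to 364 to 454 CPM against 326 to 555 CPM. Lymphocyte markers summed to at most 15.3 and 16.6 CPM and neutrophil markers to at most 17.8 and 5.84 CPM, and their defining genes Cd3e, Ms4a1, Ly6g and Mpo had too few reads to be tested. The mitochondrially encoded genes took 6.15 ± 1.37% of reads (SD, n = 5) against 5.57 ± 1.12% (SD, n = 8), without a difference past the exact permutation test within runs (two-sided p = 0.269). Among their 13 transcripts 4 were positive and 9 negative, with a median of -0.08. The median was 0.06 within the run from 601 and -0.725 within the run from 619, which has 1 control. At an unadjusted p under 0.05, 1 of the 13 was lower (7.69%, beside 2.55% of all genes) and 0 higher. The transcript mt-Nd3 was at -0.70 (SE 0.33).

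The lower doses were measured against the same 5 controls, so their fold changes share the control values. They are set beside these only as levels, apart from the medians of the CAR list. The mean levels are not adjusted for run, and the doses are unequally spread over the runs. Zbtb16 had a mean of 18.7 ± 7.72 CPM (SD, n = 5) in the mice given 0.5 mg/kg, and 14.4 ± 8.16 CPM (SD, n = 8) in those given 5 mg/kg, both between the 0 and 50 mg/kg means. Cyp7a1 had 106 ± 80.5 CPM (SD, n = 5) and 113 ± 57.1 CPM (SD, n = 8), also between them. Against the 5 mg/kg mice, which are not controls of the comparison above, Cyp7a1 at 50 mg/kg was at 0.93 on the log2 scale (edgeR adjusted p = 0.961). Cyp2b10, with 4.47 ± 1.03 CPM (SD, n = 5) and 3.65 ± 3.26 CPM (SD, n = 8), and Sult1a1, with 204.5 ± 34.3 CPM (SD, n = 5) and 205 ± 72.9 CPM (SD, n = 8), stood at the lower doses near their level at 50 mg/kg. Hamp was at 853 ± 285 CPM (SD, n = 5) and 701 ± 259 CPM (SD, n = 8), beside 683 ± 269 CPM (SD, n = 8) at 50 mg/kg. The CAR list had a median of 0.10 at 50 against 5 mg/kg. Against the shared controls its median was 0.32 at 0.5 mg/kg and 0.25 at 5 mg/kg, beside 0.36 at 50 mg/kg. For Cyp2b10, Sult1a1, Ces1g and Hamp the 50 against 5 mg/kg log2 fold changes were 0.31, 0.09, 0.08 and -0.03, and none passed the test (edgeR adjusted p of 0.961 to 0.987).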

How the data were processed

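Liver RNA of 26 mice was sequenced, and 13 are compared here. The authors deposited raw read counts for each gene, made with featureCounts on mm10 after bcl2fastq, per the submitters' processing notes. The aligner, annotation and strand setting are not given in the sources used here. Coordinates are from GENCODE M21. Over 38 pairs of libraries of 1 dose, no pair agreed within sampling noise (chi-square test, 40 reads or more per gene).

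Genes were filtered with filterByExpr (14635 kept, 99.7% of reads). edgeR 4.0.16 was fitted with TMM scaling and terms for dose and run over all 26 mice, using the robust quasi-likelihood test. SEs come from the F statistic, and the median SE was 0.20. The test was tested on simulated data. The 5 shares of reads and the total were tested by exact permutation within runs. Alternatives were DESeq2, limma-voom, other scaling, filters, samples and thresholds, and leaving out each mouse; 2 fits with covariates were added after seeing the data.

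Named genes are those past the threshold, in each direction the 12 of smallest p whose mean reached 1 CPM, up to 3 of smallest p in each list, and Cyp2b10, Cyp7a1 and Nr0b2. Comparison, lists and rules were chosen with earlier results of these data known. The 45 lists carry no test.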

Additional observations from a re-analysis of the deposited data

Results flagged for a closer look

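In 180 groups of values (84 genes taken from the naming rule, the total counts and the shares of reads, at 0 and at 50 mg/kg), 9 held a mouse far from the others, a gap to the nearest mouse (on the log2 scale for genes) above Dixon's critical share of the range (0.71 for 5 mice, 0.526 for 8). That is 5.0%, and chance flags about 1 in 20. Among the controls, mouse 602 stood apart 3 times, with the immediate early gene Nr4a1 at 26.5 CPM (the next control at 1.82 CPM), Ccnb2 at 3.04 CPM (next 1.33 CPM) and Fkbp5 low at 19.5 CPM (next 43.1 CPM). Control 603 had Cyp2a5 at 530 CPM (next 194 CPM), control 604 had Cyp8b1 at 218 CPM (next 111 CPM), and control 601 had Banp at 19.7 CPM (next 11.7 CPM). At 50 mg/kg, mouse 630 was low in Gsta3 at 970 CPM (next 1591 CPM), mouse 631 low in Hamp at 185 CPM (next 449 CPM), and mouse 616 high in Eng at 62.5 CPM (next 52.6 CPM).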

How the results depend on the processing

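The count of genes past the adjusted threshold was 1, and it was 1 with limma-voom, upper-quartile scaling, both other filters, the 13 mice alone, a threshold of 0.10 and the mitochondrial share as a covariate. It was 3 with DESeq2, 2 with the clock index, 4 in the run from 601 alone, 0 in the run from 619 alone and 0 without a run term; leaving out each mouse gave 0 to 1. Genes at an unadjusted p under 0.05 numbered 1400 without a filter and 479 in the run from 619 alone. Genes bounded inside 2-fold numbered 5394 in the run from 619 alone, and 7688 were inside 1.5-fold. Genes without overlap numbered 26 of the 14635 tested over all 13 mice. They numbered 561 of the 14635 in the run from 601 alone, with 4 against 4 mice, and 32 to 86 when each mouse was left out. Groups of fewer mice overlap less readily whatever the gene, so these counts cannot be set against that of all 13 mice.

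The naming rule gave 145 genes, of which 19 had the opposite sign in the run from 619 alone and 4 in the run from 601 alone. Of the 84 followed through every alternative, 79 kept their direction. In the run from 619 alone, Cyp2c54 was at -0.12, Herpud1 at 0.13, Nr4a1 at 1.29, Cspg5 at 0.55 and Nr0b2 at 0.80, and leaving out each mouse took Nr4a1 from -2.15 to 0.61, the latter without control 602. Between 50 and 0 mg/kg, the mitochondrial share differed by 0.031 percentage points in the run from 601 alone, the ribosomal share by -0.018 and total counts by -0.041 units of 1000000 reads. Leaving out each mouse moved these and the other shares as follows: mitochondrial -1.08 to 0.031, Mup -2.0 to -1.35, Alb 1.37 to 1.75, the 50 most abundant genes 0.76 (without 50 mg/kg mouse 616) to 2.055 (without control 619), ribosomal -0.024 to 0.0298 percentage points, and totals -0.041 to 0.216 such units. The causes were not tested. No paired analysis was possible because the labels give the groups no shared replicate numbers. Depth limits weakly expressed genes most: in the lowest 10% by expression 18.5% were bounded inside 2-fold.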
